A study of Mus musculus with 6 samples.

Results

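Windows of extreme read depth are the 100-bp stretches of the autosomes on which most reads piled up in every library. They were chosen by read depth alone. Reads were summed in each window over the CpG cytosines, on either strand, that had at least 6 reads in all 6 libraries, and divided by the number of these cytosines. A window was ranked by its lowest value over the 6 libraries, and the 0.5% of highest rank were taken, which gave 1403 of 280595 windows. The 1403 windows formed 1152 loci when neighbours within 1000 bp were joined, and 972 loci were single windows.

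DNA came from the full cortex of C57BL/6 embryos at E16 and was read by Ox-RRBS, an oxidative form of bisulfite sequencing on a reduced part of the genome, in which MspI cuts the DNA, hydroxymethylcytosine is oxidised, and cytosines still read as C after bisulfite treatment count as methylated. There were 3 libraries of Uhrf1 conditional knockout embryos (cKO, Uhrf1 -/-) and 3 of heterozygous embryos (Uhrf1 +/-), which served as controls. Per the study's methods all carried Emx1-Cre, which recombines the floxed exon 4 of Uhrf1 in the dorsal telencephalon, so that cells of other origin in the tissue keep the gene. The labels tie no library to a litter or an embryo, so a p-value here is set against library spread alone, which may be technical.

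Uhrf1 binds hemimethylated CpGs behind the replication fork and brings the maintenance methyltransferase Dnmt1 to them, so that the methylation pattern is copied to the new strand. Sequences present in many copies, such as satellites, ribosomal DNA and retrotransposons, can gather reads on few places of a reference assembly. The assembly holds only part of the ribosomal DNA and satellite arrays of the mouse, so reads from many real copies can pile up on a sequence that the assembly lists once. Retrotransposons such as IAP and LINE-1 are densely methylated in somatic cells.

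Libraries differed in one respect that touches every result. Heterozygous replicate 1 was methylated like the cKO libraries, in these windows as in all others, so tests between groups are given with and without it. Shares of methylation left are relative to heterozygous replicates 2 and 3 alone. That library was left out for its methylation level, the very quantity tested. Low p- and q-values without it are thus partly set by that choice and are no independent support for a difference. The libraries held between 14245406 and 23099539 reads over shared autosomal cytosines. The deepest windows took 8.75%, 8.85% and 9.24% of these reads in the cKO libraries, against 8.35%, 9.88% and 8.56% in the heterozygous libraries. The 10 deepest windows alone took between 2.43% and 3.60%.

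The following windows show what the group holds, in the order of their description. Each sequence is the plus strand of GRCm38 and CpGs are in capitals. The level of a window rests on its covered cytosines alone, which can be fewer than the CpGs shown.
Satellite block, deepest window, chr2:98666501-98666600: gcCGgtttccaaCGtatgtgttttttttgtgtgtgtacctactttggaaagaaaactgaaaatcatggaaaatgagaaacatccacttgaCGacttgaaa
Family 1, within Atp13a4, chr16:29517301-29517400: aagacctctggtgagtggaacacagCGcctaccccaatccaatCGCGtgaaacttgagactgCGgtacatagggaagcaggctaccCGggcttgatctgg
Family 1, within Fam81b, chr13:76203901-76204000: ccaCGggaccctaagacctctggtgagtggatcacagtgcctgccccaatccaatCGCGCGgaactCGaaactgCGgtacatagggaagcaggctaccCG
Family 1, intergenic, chr14:92930001-92930100: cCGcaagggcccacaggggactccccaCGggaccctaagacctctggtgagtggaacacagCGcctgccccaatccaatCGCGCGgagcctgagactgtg
Family 2, intergenic, chr3:6456001-6456100: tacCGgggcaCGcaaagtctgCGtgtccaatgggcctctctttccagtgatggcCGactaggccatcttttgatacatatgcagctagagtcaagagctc
Family 2, intergenic, chr9:69533201-69533300: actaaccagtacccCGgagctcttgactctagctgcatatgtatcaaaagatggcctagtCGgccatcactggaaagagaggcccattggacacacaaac
Family 3, deepest window, chr4:87680801-87680900: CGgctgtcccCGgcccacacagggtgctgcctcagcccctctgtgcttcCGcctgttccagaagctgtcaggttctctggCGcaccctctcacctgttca
Family 6, intergenic, chr15:27290901-27291000: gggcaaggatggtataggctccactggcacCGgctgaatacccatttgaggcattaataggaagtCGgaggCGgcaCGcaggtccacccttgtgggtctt
Ribosomal DNA locus, deepest window, chr17:39847401-39847500: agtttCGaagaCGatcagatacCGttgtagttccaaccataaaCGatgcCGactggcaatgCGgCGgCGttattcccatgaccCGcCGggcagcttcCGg
1 copy, beside Ranbp9, chr13:43481401-43481500: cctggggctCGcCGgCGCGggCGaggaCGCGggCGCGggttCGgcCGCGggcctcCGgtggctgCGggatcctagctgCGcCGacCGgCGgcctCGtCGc
1 copy, beside Kat6a, chr8:22850201-22850300: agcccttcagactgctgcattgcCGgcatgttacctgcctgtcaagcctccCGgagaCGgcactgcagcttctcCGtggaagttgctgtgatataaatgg

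These sequences carry the main results. The 3 family 1 windows share runs of 30 or 31 identical bases, and the pair of family 2 windows share a run of 78 bases on opposite strands. Within each family the windows kept different shares of their methylation. The satellite and the ribosomal DNA windows lay at extreme depth although the median 32-base word in each occurs once in the assembly, while the most frequent word of the satellite window occurs 210 times. The last pair show both ends of the range among windows found once in the assembly.

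**Figure D1:**
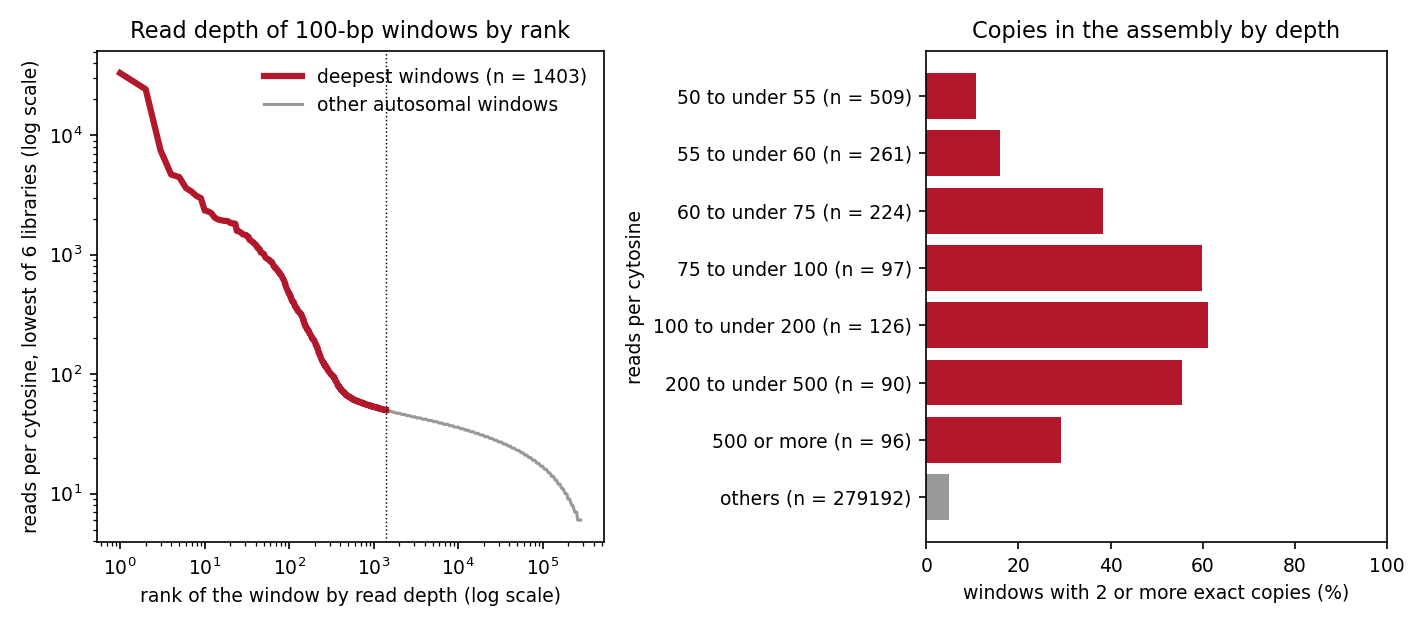
Left, reads per cytosine (lowest of 6 libraries, log scale) against the rank of each autosomal window (log scale), with the 1403 deepest windows in red and the dotted line at rank 1403, where the score was 50. Right, percent of windows with 2 or more exact copies in the assembly by reads per cytosine, which was 10.8% at 50 to under 55 reads, 61.1% at 100 to under 200 reads and 4.93% in the other windows.

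Depth varied widely within the group, as the plot of depth by rank shows. The score, reads per cytosine in the shallowest library, had a median of 58 and a maximum of 33173, against a median of 13 in the other windows. A score of 100 or more was reached by 312 windows, 500 or more by 96 and 1000 or more by 50. The threshold fell in a flat part of the curve. The 5 windows just inside it and the 5 just outside it all had a score of 50, and 85 members and 34 non-members tied at that value. Ties were broken by chromosome name and position, so depth did not separate these windows. Inside lay 2 windows of the lincRNA C230088H06Rik, 1 in Gm1043 and 2 between genes near Uchl1os and Trmt112-ps1. Outside lay windows in Fras1, Gm13822 and Mcm7, 1 at the promoter of Snx8 and 1 near Igkv13-82. The share of methylation left in cKO relative to heterozygous replicates 2 and 3 was 45.1% to 87.2% in the 5 inside and 34.1% to 85.4% in the 5 outside. Most members rested on few cytosines: the median was 1 per window, against 2 in other windows, and 318 members had 3 or more.

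The label of likely multicopy sequence was borne out by copies in the assembly for a minority. For each window the 32-base words it contains were counted in the whole assembly on both strands, and the median count was taken as its number of exact copies. Of the 1403 windows, 396 (28.2%) had 2 or more copies, against 4.93% of the other windows, and 226 (16.1%) had 50 or more, against 1.68%. The other 1007 occurred once in the assembly. As the assembly holds only part of the ribosomal DNA and satellite arrays, this does not show that they are single-copy in the genome. The share with 2 or more copies was 10.8% at a score of 50 to under 55, 38.4% at 60 to under 75 and 61.1% at 100 to under 200. It was 29.2% at 500 or more, where the ribosomal DNA locus lies, and 40.3% outside that locus. With words counted after C-to-T conversion, closer to what a bisulfite read shows, 37.1% had 2 or more copies, against 9.36% of other windows.

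Members held more repeat sequence than other windows. Soft-masked bases, the part of the reference listed as repeats, made up 36.0% of member sequence and 14.7% of the sequence of other windows. Of the members 461 were masked over at least 50 bases. MspI fragments that held a member had a median length of 204 bp, against 182 bp for other windows. They were longer than 1000 bp for 121 members (8.62%), against 0.487% of the other windows. In windows of 1 copy with a score of 100 or more, outside the ribosomal DNA locus, the share on such long fragments was 40.4%. Intergenic sequence held 47.2% of members, against 28.0% of others, and promoters of coding genes held 6.20%, against 15.8%. CpG islands were about as frequent, at 33.0% of members and 35.8% of others. These are counts over neighbouring windows, which are not independent, so no test was made.

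Among the gene lists, 64 members (4.56%) overlapped the listed multicopy loci, against 0.0283% of other windows. The lists were drawn up with earlier results of these data known, so an overlap is no independent support. The rRNA genes held 17 members (1.21%, against 0.00537% of others) and pseudogenes 43 (3.07%, against 1.25%). Zinc finger protein (Zfp) genes held 12 (0.855%, against 0.971%), close to the share of others. No member lay in snRNA, snoRNA, Speer or listed imprinted genes, which held at most 0.0584% of other windows each, too few for a count of 0 to say anything. The genes with most members were Gm26917 with 31, CT010467.1 with 17, Gm42418 with 13, C230088H06Rik with 10 and Sfi1 with 9. The first 3 cover the ribosomal DNA stretch of chromosome 17. Gm26917 and Gm42418 are on the multicopy list, and windows of CT010467.1 carry an rRNA annotation. The multicopy and rRNA counts thus rest in large part on the same locus. Sfi1, a centriole protein gene, averaged 53.1% ± 3.65 in cKO (SD, n = 3), against 88.1% and 83.7% in heterozygous replicates 2 and 3 and 49.1% in replicate 1. C230088H06Rik averaged 43.5% ± 0.914 in cKO (SD, n = 3), against 61.5%, 59.6% and 40.1% in heterozygous replicates 2, 3 and 1.

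The methylation level of these windows was not used in choosing them. Each window counting equally, the 1403 windows averaged 35.7%, 35.1% and 29.6% in cKO replicates 1, 2 and 3, against 30.0%, 64.6% and 64.0% in heterozygous replicates 1, 2 and 3. All cKO libraries lay below heterozygous replicates 2 and 3, and heterozygous replicate 1 lay within the cKO range. The mean was 33.5% ± 3.38 in cKO and 52.9% ± 19.9 in heterozygous cortex (SD, n = 3 each), a difference of -19.4 percentage points that was within the spread of the heterozygous libraries (two-sided exact permutation test, p = 0.3, where 0.1 is the smallest possible). Without heterozygous replicate 1 it was -30.9 points (exact p = 0.1, again the smallest possible). The other windows averaged 23.3% ± 2.87 in cKO and 41.0% ± 18.3 in heterozygous libraries (SD, n = 3 each), and the difference without heterozygous replicate 1 was -28.3 points.

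Window by window, with all 6 libraries, 0 of the 1403 members were called lower in cKO, against 0.0% of all windows, and 0 were called higher, against 0.0% of all windows. A window was called at a q under 0.01 (moderated quasi-binomial test with limma's empirical Bayes step, Benjamini-Hochberg over all windows) and a difference of at least 25 points. At an unadjusted p under 0.05 there were 579 members and 41686 of 279192 other windows. The plain binomial test called 616 of the 1403 members lower, against 105032 of all 280595 windows (37.4%), and limma on the levels called 0. Limma on the levels without heterozygous replicate 1 called 544 of the 1403 members lower, against 49703 of all 280595 windows (17.7%). Without heterozygous replicate 1, 864 members (61.6%) were called lower, against 44.3% of all windows, and 0 were called higher, against 0.00285%. With the dispersion of each window alone, 0 members were called lower even without that library. Depth chose these windows and also helps a window to reach q under 0.01, so the share called is no measure of the size of the change. Among windows of at least 25% in heterozygous replicates 2 and 3, the median difference without replicate 1 was -43.3 points in members and -45.9 points in other windows. It was -46.9 points in members of 1 copy and -32.5 points in members of 2 or more copies. In 1088 of the 1403 members all 3 cKO libraries lay below both heterozygous replicates 2 and 3, against 170726 of the 279192 other windows. Among windows of at least 25% in these 2 controls the counts were 1038 of 1102 members and 165352 of 181964 other windows.

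The share of methylation left in cKO was larger in the deepest windows than in windows of the same level over all levels. The share is the cKO level as a percent of the mean of heterozygous replicates 2 and 3, and other windows were weighted, in bins of 10 points of that mean, to the levels of the members. Members kept 55.5%, 54.6% and 46% in cKO replicates 1, 2 and 3, against 48.3%, 47.2% and 38.0% in the other windows. The means were 52.0% ± 5.26 and 44.5% ± 5.66 (SD, n = 3 cKO libraries), and the difference was 7.51 ± 0.3998 points, positive in 3 of 3 libraries. Set against all 3 heterozygous libraries it was 5.55 points. Matching on heterozygous replicate 2 alone leaves the other control free. Members then exceeded the matched windows by 4.74, 4.85 and 5.24 percentage points of methylation in cKO replicates 1, 2 and 3, against 5.41 in heterozygous replicate 1 and 0.343 in heterozygous replicate 3. The cKO libraries were not separated from the pair of heterozygous libraries (two-sided exact permutation test, p = 0.4, smallest possible 0.1), and heterozygous replicate 1 lay above all 3 cKO values. Matching on replicate 3 gave 5.10 ± 0.246 points in cKO (SD, n = 3), against 5.56 in heterozygous replicate 1 and 0.961 in replicate 2 (exact p = 0.4).

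**Figure D2:**
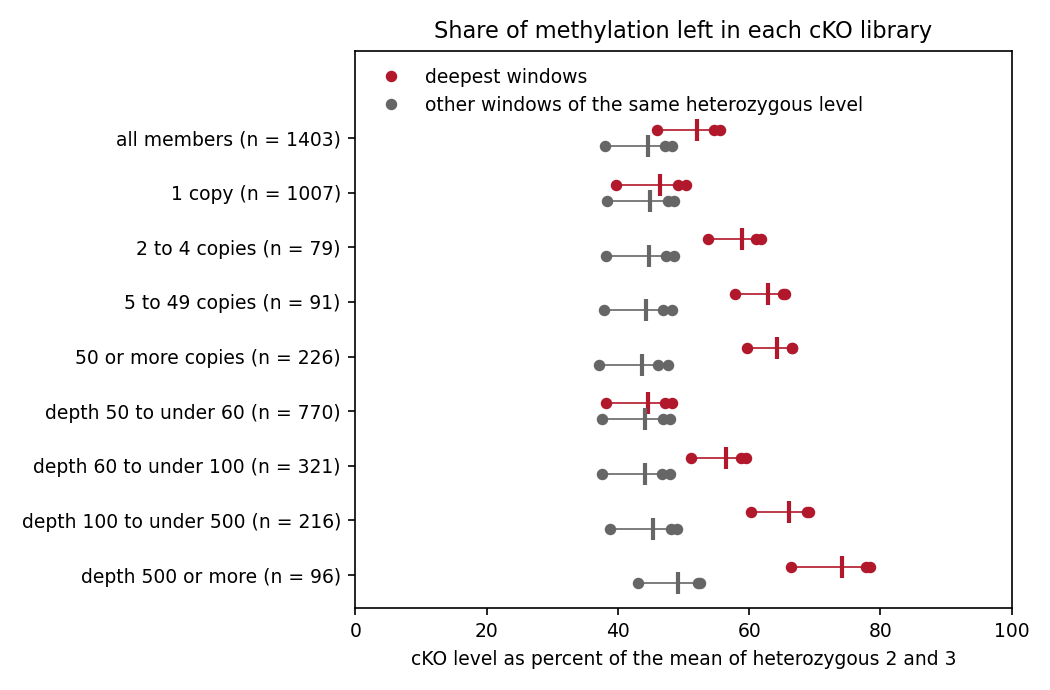
Level in each cKO library as a percent of the mean of heterozygous replicates 2 and 3 (points, with a line from lowest to highest and a bar at the mean), for the deepest windows in red and for other windows of the same heterozygous level in grey, by exact copies and by reads per cytosine. Heterozygous replicate 1 is not plotted. The 50 or more copies class averaged 64.2% and its matched windows 43.6%, while at a depth of 50 to under 60 the values were 44.5% and 44.1%.

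Copies in the assembly and depth each went with the share left. Windows of 1 copy kept 46.4% ± 5.86, against 44.8% ± 5.66 in matched windows, a difference of 1.57 ± 0.283 points. Heterozygous replicate 1 was at 23.5% in these windows and at 22.7% in their matched windows. Windows of 2 to 4 copies kept 58.8% ± 4.51, those of 5 to 49 copies 62.8% ± 4.32 and those of 50 or more 64.2% ± 3.91 (SD, n = 3 cKO libraries each), while their matched windows stayed between 43.6% and 44.7%. For all 396 windows of 2 or more copies the share was 63.0% ± 4.11, which exceeded the matched windows by 19.02 ± 1.64 points. Heterozygous replicate 1 was at 46.3% in them and at 29.6% in matched windows. Set only against other windows of 2 or more copies, the excess was 10.35 ± 1.17 points. With matching on heterozygous replicate 2 these windows exceeded all matched windows by 13.9, 14.9 and 16.4 points of methylation in the cKO libraries, against 16.9 in heterozygous replicate 1 and 1.42 in replicate 3 (two-sided exact permutation test, p = 0.5).

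By depth the share was 44.5% ± 5.51 at a score of 50 to under 60, 56.5% ± 4.59 at 60 to under 100, 66.1% ± 4.97 at 100 to under 500 and 74.2% ± 6.76 at 500 or more (SD, n = 3 cKO libraries each). The matched windows kept 44.1%, 44.05%, 45.3% and 49.2% in the same order. The mean of heterozygous replicates 2 and 3 in the members was 65.3%, 70.4%, 60.9% and 43.9%, and heterozygous replicate 1 was at 25.3%, 36.7%, 37.1% and 29.1%. The 770 windows nearest the threshold were thus within 0.386 ± 0.166 points of their matched windows. Depth and copies overlap, so each was also read within classes of the other. Windows of 1 copy under a score of 100 differed from matched windows by -0.284 ± 0.178 points, and the 114 windows of 1 copy with a score of 100 or more, outside the ribosomal DNA locus, by 21.7 ± 1.40. Windows of 2 or more copies differed by 16.7 ± 1.35 points under a score of 100 and by 22.7 ± 2.10 from 100 upward. Fragments over 1000 bp and masked bases changed with depth too, and their part in these shares was not tested, except that without windows on such fragments the difference for the whole group was 6.73 points.

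Members inside CpG islands exceeded their matched windows by more than members outside them. The 463 members in CpG islands kept 68.4% ± 5.40, against 46.2% ± 5.49 in matched windows, and the 940 outside islands kept 46.2% ± 5.21, against 43.9% ± 5.72 (SD, n = 3 cKO libraries each). Heterozygous replicate 1 was at 31.9% in members inside islands and at 20.1% in their matched windows. Matched windows were drawn from inside and outside islands alike. Members inside islands were also deeper, with a median score of 72.2 against 56. Masked bases made up 43.35% of their sequence, against 32.38% outside islands. The part of depth and masking in this contrast was not tested. The 461 members masked over at least 50 bases kept 61.3% ± 3.98, against 43.8% ± 5.65 in matched windows. Level by level, the sign was not the same throughout. Members kept less than other windows in 3 of 10 level bins, with 129.4% against 173.0% at 0 to under 10%, 69.7% against 73.05% at 10% to under 20% and 47.1% against 48.2% at 40% to under 50%. In the other bins they kept more, with 46.4% ± 5.27 against 42.1% for the 431 members of 80% to under 90%. For the 311 members of at least 90% the values were 59.3% ± 3.97 and 45.0%. In the lowest bin the members averaged 1.94% in heterozygous replicates 2 and 3, so the ratio there rests on very low levels.

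**Figure D3:**
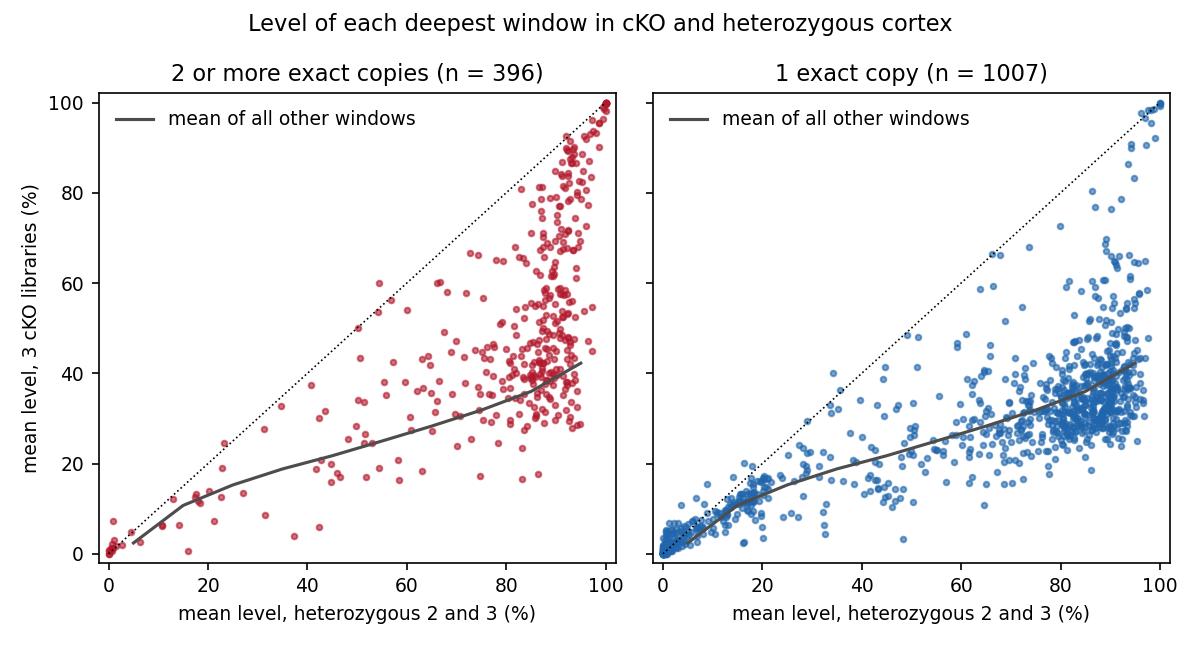
Mean level of each deepest window in the 3 cKO libraries against its mean in heterozygous replicates 2 and 3, for the 396 windows of 2 or more exact copies and the 1007 windows of 1 copy. The grey line is the mean of all other windows per 10 points of heterozygous level, and the dotted line marks equal levels. Windows of 2 or more copies spread upward from the grey line near 90%, and most 1-copy windows lie around it.

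Single windows spread widely around these means. Among the 1013 members of at least 50% in heterozygous replicates 2 and 3, the share left had a median of 44.9% and a range from 16.7% to 110.3%. The share was 90% or more in 77 of them (7.60%), against 1.41% of other windows. In windows of 2 or more copies this was 15.7%, or 55 of the 77, and in 1-copy windows 3.32%. A total of 32 members stayed at 90% or more in all 6 libraries, 10.3% of those that reached 90% in heterozygous replicates 2 and 3, against 1.61% of such other windows. Of the 32, 22 had 2 or more copies. By copies, the share that stayed was 16.4% of members and 5.7% of other windows at 2 or more copies. At 1 copy it was 5.65% and 0.98%. Counting error is larger in windows of lower depth, and its part in these contrasts was not tested.

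The deepest window lay in an exon of Gm10800 at chr2:98666501-98666600. Over its locus, from 98666201 to 98667300, bases matched best at an offset of 234 bp, where 51.3% were identical, against a median of 28.8% over all offsets tried. This is the period of the gamma (major) satellite of mouse pericentromeres. The window was at 63.2%, 65.6% and 61.0% in the cKO libraries, against 62.3%, 91.6% and 91.3% in heterozygous replicates 1, 2 and 3. The cKO values and heterozygous replicate 1 lay together, well below the other heterozygous libraries, and without replicate 1 the difference was -28.2 points (q = 2.43e-23 by the moderated quasi-binomial test, 0.327 with all libraries). Its counting intervals were at most 0.259 points wide to each side. The window at chr2:98662701-98662800 in Gm10801, the seventh deepest, was at 55.2%, 57.7% and 53.7% in cKO, against 54.2%, 90.6% and 90.7% in heterozygous replicates 1, 2 and 3. Gm10800 held 4 and Gm10801 held 5 of the 10 members here, and the offset was computed for the locus of the deepest window alone. The 10 together kept 57.3% ± 3.32 (SD, n = 3), against 44.0% in matched windows.

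Windows similar to each other in sequence were joined into families (at least 80% identity over 60 bases), and 388 members lay in a family of 2 or more. Family 1 had 93 windows with a median of 516 copies, and its deepest windows lay in introns of Atp13a4, an ATPase gene, and Fam81b. The Atp13a4 window at chr16:29517301-29517400 was at 59.8%, 60.1% and 52.6% in cKO, against 55.2%, 91.5% and 90.8% in heterozygous replicates 1, 2 and 3, and was called lower without replicate 1 (-33.7 points, q = 3.07e-17). The Fam81b window at chr13:76203901-76204000 was at 92.8%, 92.9% and 91.9% in cKO, against 91.9%, 95.6% and 95.5% in heterozygous libraries. That difference of -3.08 points without replicate 1 had a q of 4.23e-13 but lay far below 25 points. The window at chr14:92930001-92930100 was at 92.2%, 92.5% and 92.7% in cKO, against 92.2%, 92.7% and 91.2% in heterozygous replicates 1, 2 and 3, and these ranges overlapped. Its direct neighbour at 92930101, named after its values were seen, was at 44.7%, 44.9% and 37.0% in cKO, against 38.8%, 87.5% and 87.2% in heterozygous libraries. Both belong to family 1, and their scores were 2345 and 2229.

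Family 2 had 71 windows and held the most repeated words. Its window at chr3:6456001-6456100 had 23639 exact copies and was at 61.1%, 61.6% and 58.1% in cKO, against 60.6%, 67.1% and 66.4% in heterozygous replicates 1, 2 and 3. The window at chr9:69533201-69533300 had the same number of copies and was at 33.5%, 26.9% and 28.6% in cKO, against 26.7%, 86.7% and 75% in heterozygous libraries. The first kept 90.3% of its level and the second 36.7%. Of the other windows with most copies, those at chr13:70389601-70389700 and chr7:103691301-103691400 kept 41.4% and 45.2%, and the one at chr12:119513801-119513900, at 50.7% to 55.6% in every library, kept 98.8%. These 5 windows thus ranged from 36.7% to 98.8%, at 18491 to 23639 copies each. The window at chr1:25520401-25520500 in an intron of Adgrb3, an adhesion receptor gene of neurons, was at 88.9%, 86.8% and 85.1% in cKO, against 86.8%, 96.7% and 96.5%. Over the family the mean share was 55.2% ± 4.39, against 68.4% ± 3.25 in family 1 (SD, n = 3 cKO libraries each).

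**Figure D4:**
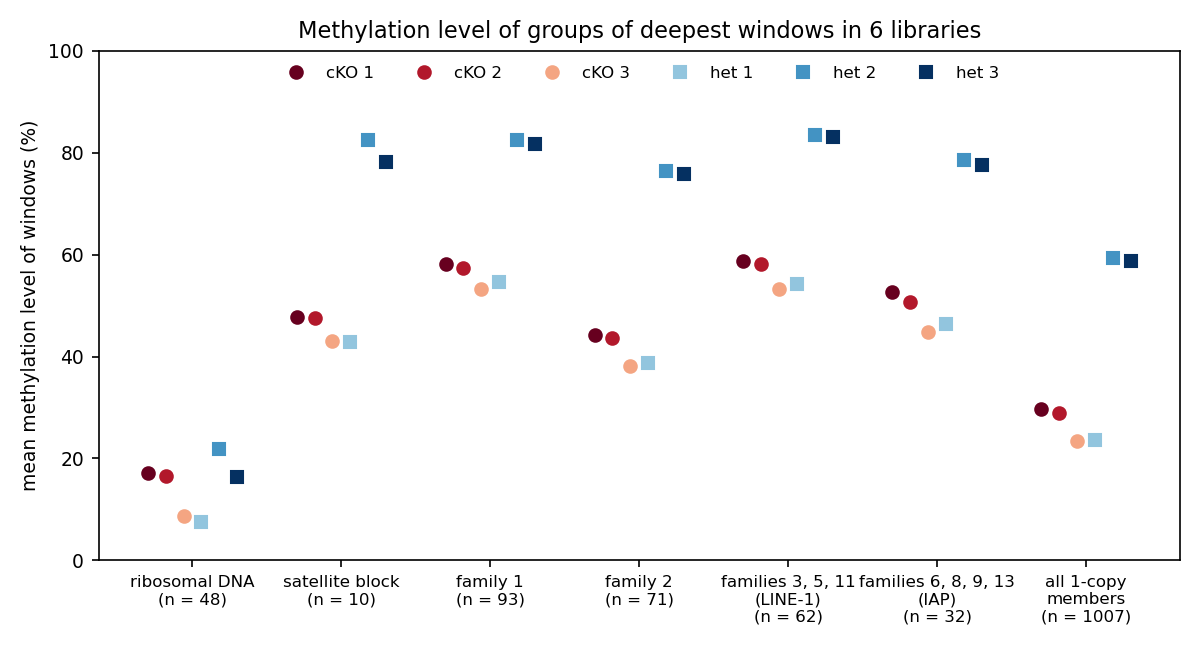
Mean methylation level of groups of deepest windows in each library, cKO as circles and heterozygous (het) as squares. LINE-1 and IAP in brackets mark families with part of their other copies beside such sites. In every group but the ribosomal DNA, heterozygous replicates 2 and 3 lie above the cKO libraries and heterozygous replicate 1 lies among them or next to them.

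In the plot of group means by library, cKO replicate 3 lay lowest in families 1 and 2 and in the families with copies beside LINE-1 or IAP sites. Families were placed by the position of their copies relative to the IAP and LINE-1 sites found with the study's qPCR primers. In family 3, 99.3% of the other copies of its words lay within 5000 bp of a LINE-1 site, where 2.33% of the autosomes lie. In family 11 this was 51.2% and in family 5 it was 15.4%. Copies of families 6, 8, 13 and 9 lay within 5000 bp of an IAP site in 71.2%, 71.1%, 47.8% and 23.4%, against 0.395% of the autosomes. In families 1, 2 and 4 the values were 0.218% to 0.671% for IAP and 2.16% to 2.61% for LINE-1, against 0.395% and 2.33% of the autosomes. These shares describe other copies of the words, and of all 1403 members 9 lay within 500 bp of a LINE-1 site and 2 of an IAP site. The 62 windows of families 3, 5 and 11, with part of their other copies beside LINE-1 sites, averaged 58.7%, 58.2% and 53.3% in cKO, against 54.2%, 83.5% and 83.0% in heterozygous replicates 1, 2 and 3, and kept 68.1% ± 3.59, against 43.6% in matched windows. The 32 windows of families 6, 8, 9 and 13 had part of their other copies beside IAP sites. They averaged 52.7%, 50.8% and 44.8% in cKO, against 46.5%, 78.5% and 77.7%, and kept 63.3% ± 5.27, against 44.0%. Matched windows of both groups came from all other windows, of which 95.1% were of 1 copy. All 396 members of 2 or more copies kept 63.0% ± 4.11, so a share of about this size was not particular to these families.

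Families grouped by the same element had different values, a difference that was not tested. Family 3 kept 72.9% ± 3.45 (37 windows), while family 11 kept 35.3% ± 1.44 (6 windows), below its matched windows at 43.3%. Family 6 kept 68.5% ± 4.23 and family 8 50.0% ± 8.76 (SD, n = 3 cKO libraries each). Heterozygous replicate 1 was at 59.6%, 27.7%, 47.7% and 37.8% in families 3, 11, 6 and 8. The fourth deepest window of all, at chr15:27290901-27291000 in family 6, was at 98.6%, 98.8% and 98.1% in cKO, against 98.3%, 99.6% and 99.6% in heterozygous replicates 1, 2 and 3. Without replicate 1 the difference of -1.14 points had a q of 3.93e-10, at a score of 4700 reads per cytosine. The fifth deepest window, at chr9:9925801-9925900 in an intron of the adhesion gene Cntn5, was at 57.7%, 57.8% and 50.3% in cKO, against 50.5%, 89.8% and 90.01%. The ninth, at chr18:90270801-90270900 in family 5, was at 82.7%, 81.6% and 79.9% in cKO, against 78.2%, 91.5% and 91.3%.

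The ribosomal DNA locus was the largest, with 48 member windows of 54 tested between 39843001 and 39848800 on chromosome 17. The annotation lists rRNA genes there. Of the 48 windows 44 occurred once in the assembly, and the 48 were read at a median of 754 to 1527 reads per cytosine by library. Their mean level was 17.2%, 16.5% and 8.62% in cKO, against 7.55%, 21.9% and 16.3% in heterozygous replicates 1, 2 and 3. The groups overlapped. The cKO mean was 14.1% ± 4.77 and the heterozygous mean 15.2% ± 7.21 (SD, n = 3 each, two-sided exact permutation test, p = 1), and without replicate 1 the difference was -4.97 points (exact p = 0.6). In all 48 windows cKO replicate 3 and heterozygous replicate 1 lay below both other cKO libraries, while heterozygous replicate 2 lay above all cKO libraries in 45 windows and replicate 3 in 17. None of the 48 was called lower without heterozygous replicate 1 (0 by the moderated quasi-binomial test), and a window under 25% in the controls could not be called.

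Among the 1013 windows of at least 50%, 663 occurred once, and so did 3 of the 5 with the largest share left. The window in the promoter region of Ranbp9, a scaffold protein gene, 119 bp from the gene, at chr13:43481401-43481500 was at 97.1%, 98.5% and 97.3% in cKO, against 94.0%, 97.6% and 94.8% in heterozygous replicates 1, 2 and 3. These values come from 1 covered cytosine, while the window holds 20 CpGs, so they do not give the level of the whole window. In an intron of Poldip3, at chr15:83131201-83131300, all libraries lay between 65.9% and 66.7%. This level is a mean over 3 cytosines, which may differ from each other and were not looked at singly. In Gm30624, at chr10:111754001-111754100, all lay between 96.8% and 99.1%. The largest share, 110.3%, was in a window of 49 copies at chr10:21735801-21735900, at 56.2%, 62.2% and 61.8% in cKO, against 60.3%, 53.1% and 55.9%, with counting intervals of up to 10.95 points to each side (q = 0.523 without replicate 1).

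At the other end stood the window at chr8:22850201-22850300, between genes and 9235 bp from Kat6a, a histone acetyltransferase gene. It was at 10.2%, 10.4% and 11.9% in cKO, against 1.75%, 69.8% and 59.4% in heterozygous replicates 1, 2 and 3. It kept 16.7%, and without replicate 1 the difference was -53.8 points (q = 2.31e-09). A family 2 window of 2417 copies at chr7:61025401-61025500 kept 19.9%, at 16.5%, 19.1% and 14.04% in cKO, against 13.6%, 82.7% and 83.7%. A window of 1288 copies at chr12:54628201-54628300 kept 20.4%. Windows of 1 copy in introns of Nelfcd and Ptcd1 kept 21.5% and 22.2%. Windows of many exact copies stood at both ends of the range.

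Low methylation was also found at great depth. The sixth deepest window, at chr19:61266601-61266700 between genes, was at 12.2%, 10.3% and 4.05% in cKO, against 3.74%, 14.1% and 11.5% in heterozygous replicates 1, 2 and 3, and the groups overlapped. A total of 37 members (2.64%) stayed under 1% in all 6 libraries, against 4.97% of other windows, and 34 of them occurred once.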

How the data were processed

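Per the study's methods, the authors mapped the reads with Genomatix 2.2.2 to GRCm38 accepting no mismatch and excluded positions with coverage of 5 or less. The submitters' processing notes name methylKit. The deposited tables give, for each cytosine and strand, the coverage, a count of reads, with the percent read as C and as T, neither normalised nor pooled. How the mapper placed reads that match several positions is not given in the sources used here. Methylated reads were recovered from coverage and percent, and reads were summed in 100-bp windows. As the reads carry no molecular identifiers, the 95% Wilson intervals cover counting error only.

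Each window was tested with a binomial model and a quasi-binomial F test. Its dispersion was moderated with limma 3.58.1 in R 4.3.3 over all 280595 windows. The test was also run on simulated data in which heterozygous replicate 1 had the level of replicates 2 and 3. That differs from these data, so the run does not cover their spread. Group means were compared with exact permutation tests. Copies are exact 32-base words in the GRCm38 assembly, families come from BLAST 2.17.0, overlaps from bedtools 2.31.1 and genes from GENCODE M21. CpG islands were computed from sequence (200 bp, GC of 50% or more, observed to expected CpG of 0.6 or more), and promoters ran from 1000 bp before to 500 bp after the start of coding genes. Python 3.11.15 with numpy 2.4.6 and pandas 2.3.3 was used. Named windows were the 10 deepest, the 5 with the largest and the 5 with the smallest share left among those of at least 50%, 5 on each side of the threshold, the 5 with most copies, and the 5 genes with most members. The members and lists were chosen with earlier results of these data known. The distance of 5000 bp for families was chosen after seeing the data. Alternatives varied the coverage minimum, the share of windows taken, the ranking, the test, the matching and the libraries.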

Additional observations from a re-analysis of the deposited data

How the results depend on the processing

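The mean difference between cKO and heterozygous cortex kept its direction in all alternatives. The direction of the difference in share left was positive in all alternatives, but its size followed how deep a set was taken. It was 11.5 points with at least 10 reads per cytosine and 21.5 with at least 20, 21.4 for the top 0.1% and 3.40 for the top 1%, 6.69 when the median library ranked a window and 17.1 with at least 3 cytosines. It was 8.90 points against the next 4.5% by depth. It was 1.57 for members of 1 copy and 19.02 for those of 2 or more. Chosen after seeing the data, it was 10.35 against other windows of 2 or more copies, 5.55 when set against all 3 heterozygous libraries, 6.73 on fragments of at most 1000 bp and 21.7 for 1-copy windows of depth 100 or more outside the ribosomal DNA locus. Leaving out single libraries gave 7.29 to 7.98 points. Heterozygous replicate 1 has no part in the share left, so leaving it out could not change the value.

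The share left itself was 66.3% with at least 20 reads, 67.9% for the top 0.1%, 65.3% with at least 3 cytosines, 63.1% with reads summed over members and 63.3% against all 3 heterozygous libraries. Windows of 2 or more copies made up 36.3% and 50.0% with at least 10 and 20 reads, 48.0% and 17.6% for the top 0.1% and 1%, 25.3% by the median library, 30.8% with at least 3 cytosines, 37.1% after C-to-T conversion and 41.2% by the highest word count. Masked bases were 42.8%, 54.5%, 51.6%, 26.6% and 33.2% under the first 5 of these.

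Members called lower ranged from 0 to 864 when single libraries were left out, and only the omission of heterozygous replicate 1 gave any. The plain binomial test called 616 of the 1403 members, against 37.4% of all windows, and limma on levels without that library 544, against 17.7%. With the dispersion of each window alone none was called without that library, though 977 had an unadjusted p under 0.05. The replicate block called 0, with a paired mean difference of -19.4 points (exact sign-flip p = 0.5). Whether same-numbered libraries were paired is not known. Their deviations from the group means correlated at -0.195, 0.0621 and -0.235. These values cannot decide it, because heterozygous replicate 1 lay far from the other heterozygous libraries and dominates the deviations. Among single windows, leaving out a library turned the sign of differences that were not called, with ranges over the single omissions of -0.646 to 1.82 points at chr12:119513801, -3.96 to 1.47 at chr19:61266601, -11.1 to 4.91 at chr4:147222001, -4.38 to 0.975 at chr5:140389601, -0.00321 to 0.294 at chr15:83131201 and -0.137 to 1.03 at chr10:111754001. At 1 cytosine and 50 reads per window, single levels near the threshold carried counting intervals of up to 13.3 points to each side.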

Other observations

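Windows outside the autosomes were not ranked, but some would have reached the threshold of 50 reads per cytosine. They were 31 of 4825 windows on chromosome X, with a highest score of 5731, 6 of 46 on chromosome Y and 4 of 10 on mitochondrial DNA. Gm49692, with 7 member windows on chromosome 12, averaged 35.8% ± 5.08 in cKO (SD, n = 3), against 38.4%, 67.6% and 63.8% in heterozygous replicates 1, 2 and 3. Gm26624, with 7 member windows on chromosome 4 of which at least 2 also lie in C230088H06Rik, averaged 52.1% ± 1.58 in cKO (SD, n = 3), against 48.7%, 72.0% and 69.9%.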
